A study of Mus musculus with 48 samples.

Results

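The genes described here are 9 genes of B cells, plasma cells and secretory antibody in the developing mouse small intestine: Ighm, Igha, Jchain, Pigr, Ms4a1, Cd79a, Cd79b, Mzb1 and Tnfrsf17. They were chosen by name, with earlier results of these data known, and all 9 were found among the 54532 genes of the count table. Whole-thickness pieces, 2 cm long, of duodenum (next to the stomach outlet) and of ileum (next to the caecum) had been taken from C57BL/6J mice on postnatal days 0, 2, 4, 6 and 8 and in weeks 2, 3 and 4. No group had a treatment or an altered gene, both sexes were used, and pups were kept with the mother up to day 21, then fed chow. The housing is called standard germ-free in the labels, and whether the mice carried bacteria could not be settled from them. Each of the 16 groups of region and age had 3 samples, numbered 1 to 3. Number 3 of day 6 was left out in both regions because its region markers matched the other region, so 46 of 48 samples were used and the day 6 groups had 2. Nothing in the labels says that samples of a group were separate animals, so p-values measure the spread between these samples only.

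B cells carry an antibody on their surface as antigen receptor, made of the antibody itself and the signalling chains CD79A and CD79B. When activated they can switch from IgM to another antibody class and mature into plasma cells, which secrete antibody. In the gut the main secreted class is IgA. Plasma cells join IgA with the J chain, and epithelial cells bind the joined form with the polymeric immunoglobulin receptor, encoded by Pigr, and carry it into the lumen. Suckling pups receive antibody in milk, and their own intestinal IgA plasma cells are known to appear around weaning.

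Promoters of Jchain, Cd79a and Pigr are shown because these genes stand for the plasma cell, the B cell and the epithelial side of the system. Each run holds 250 bases before and 50 after the RefSeq start of transcription, 5′ to 3′ on the gene's strand, from the GRCm38.p6 build, which is the mm10 build of the submitters' processing notes. Capitals mark a match to one of 6 motifs that were searched on both strands. Of the 9 genes, 4 had a promoter in the RefSeq table used (Pigr, Jchain, Cd79a and Tnfrsf17).
Jchain, minus strand, chr5:88527848-88528147: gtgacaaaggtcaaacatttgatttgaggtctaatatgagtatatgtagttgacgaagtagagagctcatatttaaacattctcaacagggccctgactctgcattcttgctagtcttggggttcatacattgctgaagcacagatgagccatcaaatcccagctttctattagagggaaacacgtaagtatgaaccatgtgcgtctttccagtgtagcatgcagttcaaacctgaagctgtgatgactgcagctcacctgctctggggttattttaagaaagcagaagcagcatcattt
Cd79a, plus strand, chr7:24897247-24897546: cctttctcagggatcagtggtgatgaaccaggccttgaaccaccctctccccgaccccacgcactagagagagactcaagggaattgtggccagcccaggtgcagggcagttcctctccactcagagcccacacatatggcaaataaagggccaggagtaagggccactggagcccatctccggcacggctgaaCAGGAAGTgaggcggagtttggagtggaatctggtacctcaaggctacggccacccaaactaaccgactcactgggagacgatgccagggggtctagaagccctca
Pigr, plus strand, chr1:130826434-130826733: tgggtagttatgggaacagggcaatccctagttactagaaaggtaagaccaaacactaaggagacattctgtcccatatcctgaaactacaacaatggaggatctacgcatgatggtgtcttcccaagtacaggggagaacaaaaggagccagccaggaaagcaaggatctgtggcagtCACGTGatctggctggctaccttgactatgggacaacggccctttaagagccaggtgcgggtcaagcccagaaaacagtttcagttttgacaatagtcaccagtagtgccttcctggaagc
The Cd79a promoter held the Ets site CAGGAAGT 56 bases before the start, a match found in 3.33% of 32851 promoters of the same length. The Pigr promoter held the E-box CACGTG 71 bases before the start, a match found in 7.15% of them. The Jchain window held none of the 6 motifs. The others searched were the octamer ATGCAAAT (in 1.74% of promoters), the EBF1 site, TCCC and GGGA with 2 bases between (0.904%), the interferon response core, GAAA and GAAA with 2 bases between (3.44%), and the kappaB site, GGGA and TTCC with 2 bases between (1.47%). Tnfrsf17 held the interferon response core 101 bases before its start. The E-box and Ets motifs were added after the sequences had been read, and a match is a description of letters, not of binding.

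Igha (chromosome 12, 113254830 to 113260236) and Ighm (chromosome 12, 113418558 to 113422730) are constant genes of the immunoglobulin heavy-chain locus. Jchain lies on chromosome 5 (88519809 to 88527891), Pigr on chromosome 1 (130826684 to 130852249), Cd79a on chromosome 7 (24897381 to 24902197), Cd79b on chromosome 11 (106311341 to 106314762), Ms4a1 on chromosome 19 (11249675 to 11266241) and Tnfrsf17 on chromosome 16 (11313812 to 11320074).

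Levels are given as CPM, the estimated count per megacount of a library after scaling, and are compared for one gene across samples, not between genes. Estimated counts summed to 16824021 to 65042327 per sample. A gene was called changed when its p from edgeR's quasi-likelihood test, adjusted by the Benjamini-Hochberg method over 21986 genes, was under 0.05. Of the 9 genes, 8 passed the filter on low counts, and Tnfrsf17 did not. In bulk tissue, more cells of a type and more RNA per cell cannot be told apart.

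Some libraries stood apart in genes outside the 9. Ileum week 4 number 1 had 41.6 CPM of Fabp6, the ileal bile acid binding protein, against 1256 and 1936 in the other ileum samples of week 4, and 85.9 CPM of Gata4, a proximal transcription factor, against 21.1 and 22.3. Duodenum week 4 number 2 had 1.81 CPM of Pdx1, a duodenal transcription factor, against 20.7 and 17.0 in the others. Its Gata4 lay between theirs, at 150.3 CPM against 135 and 166. Duodenum week 2 number 2 had 3.99 CPM of Pdx1 against 18.0 and 13.7 in its group. It also had no Igha count and the lowest Ighm, Ms4a1, Cd79a, Cd79b and Mzb1 of that group, but not the lowest Pigr or Jchain. Ileum day 0 number 2 had 6.51 CPM of Pdx1 against 0.111 and 0.665 in its group, and its Fabp6 was not low (39.9 CPM against 21.9 and 24.9). The part of the place of the cut in these levels was not tested. Xist, transcribed from the inactive X chromosome, was above the Y-linked Ddx3y in all 6 week 4 samples, and in 1 of 3 samples of each region at week 3. Duodenum day 0 numbers 2 and 3 held both RNAs above 10 CPM.

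Over the 8 ages, all 8 genes tested were called in the duodenum, where 67.4% of all genes were, and all 8 in the ileum, where 58.7% were. The course was not a steady rise. The B cell genes had a first, smaller rise in the first 2 weeks, and Jchain came late. The steepest step for most of them lay between week 3 and week 4, as the plots by age show.

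**Figure D1:**
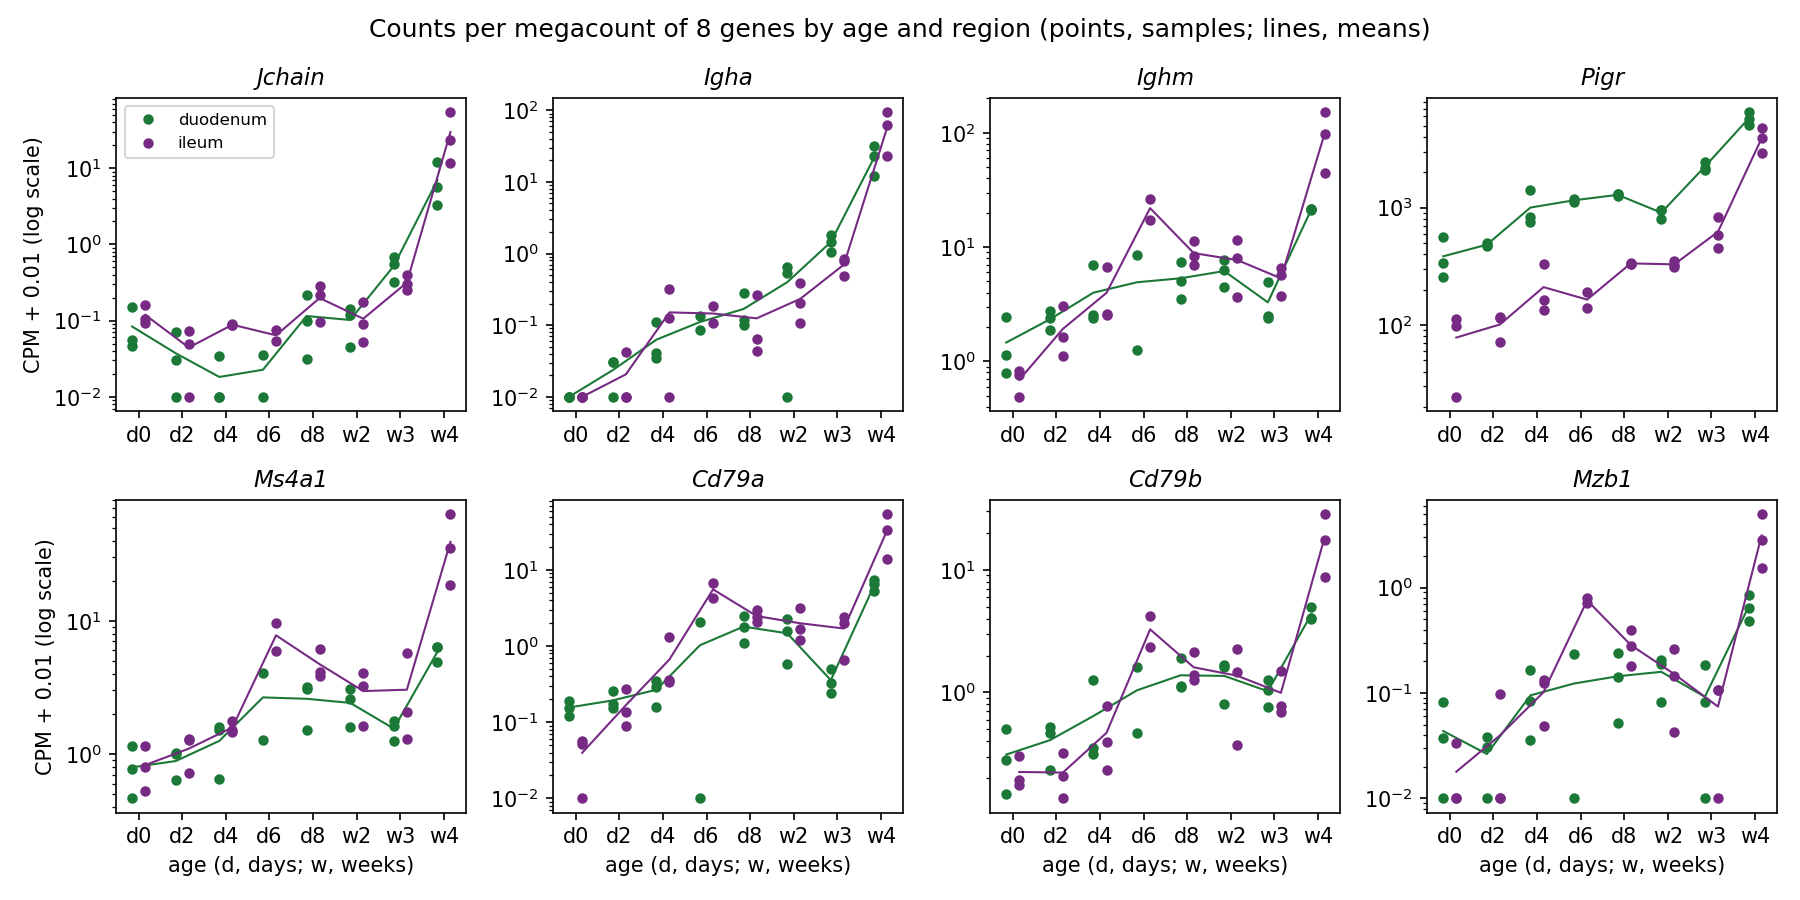
CPM plus 0.01 on a log scale against age for the 8 genes that passed the low-count filter; points are samples of duodenum (green) and ileum (purple), and lines join group means. Jchain and Igha stayed at 1.83 CPM or less through week 3 and stood at 3.28 CPM or more in every week 4 sample. The means of Ighm, Ms4a1 and the Cd79 genes had an earlier peak in the ileum at day 6, which rests on 2 samples and was not tested.

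Igha, the constant gene of the IgA heavy chain, had no count in any of the 6 samples of day 0. In the duodenum it stood at 0.637, 0 and 0.526 CPM at week 2, at 1.83, 1.43 and 1.05 at week 3, and at 12.3, 22.9 and 31.5 at week 4. The ileum samples held 0.380, 0.191 and 0.0981 CPM at week 2, 0.480, 0.772 and 0.820 at week 3, and 22.8, 61.5 and 94.0 at week 4. Every week 4 sample was above every week 3 sample of its region. Between week 3 and week 4 Igha rose 15.3-fold in the duodenum (log2 3.94 ± 0.58 SE, edgeR adjusted p = 9.94e-06) and 86.4-fold in the ileum (6.43 ± 0.67, adjusted p = 1.60e-08). Against day 0, set at a floor of 3 counts over the group, the duodenum of week 4 was at least 836-fold higher and the ileum at least 1845-fold higher. In the duodenum the step from week 2 to week 3 was also called, 3.58-fold with an adjusted p of 0.0367, and its samples did not overlap. That call was lost with DESeq2 (adjusted p = 0.10), without the low-count filter (0.0951), with only the compared groups (0.0735), and without any 1 of week 2 numbers 2 and 3 and week 3 numbers 1 and 2 (0.0599 to 0.154, with a lowest log2 difference of 1.32). In the ileum the same step was 3.00-fold (log2 1.58 ± 0.73) and was not called (adjusted p = 0.114).

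Jchain, the chain that links IgA and IgM units, kept to single counts for longer. No sample before week 3 exceeded 0.275 CPM. In the duodenum the week 3 samples stood at 0.681, 0.314 and 0.539 CPM and those of week 4 at 3.28, 5.67 and 11.9. In the ileum they stood at 0.240, 0.386 and 0.289 CPM at week 3 and at 11.6, 23.6 and 54.2 at week 4. The groups of week 3 and week 4 did not overlap in either region, and the week 4 samples were themselves far apart. Jchain rose 13.1-fold in the duodenum (log2 3.72 ± 0.52 SE, edgeR adjusted p = 2.00e-06) and 97.2-fold in the ileum (6.60 ± 0.61, adjusted p = 2.69e-10). No rise was called by day 8 or week 2 in either region. The log2 difference of week 2 from day 0 was 0.40 ± 0.85 SE in the duodenum (adjusted p = 0.785) and -0.26 ± 0.82 in the ileum (adjusted p = 0.897). The duodenum showed an earlier step, 5.26-fold from week 2 to week 3 (log2 2.39 ± 0.66, adjusted p = 0.00750). In the ileum this step was 3.28-fold and not called (1.72 ± 0.74, adjusted p = 0.0820). In order of level, ileum and duodenum of week 4 came first and overlapped, duodenum and ileum of week 3 followed and overlapped, and every group of an earlier age averaged 0.188 CPM or less.

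Ighm, the constant gene of the IgM heavy chain, had counts in every sample from day 0 on. At day 0 it stood at 0.776, 1.14 and 2.44 CPM in the duodenum and at 0.480, 0.751 and 0.807 in the ileum. By day 6 the ileum samples held 17.4 and 26.4 CPM, above all ileum samples of day 8 (11.3, 8.31 and 6.96), week 2 (7.99, 11.4 and 3.63) and week 3 (3.72, 6.51 and 5.74). At week 4 the ileum held 44.2, 98.1 and 151 CPM and the duodenum 21.7, 21.2 and 21.5, the narrowest spread of any duodenum group for this gene. Over the last week Ighm rose 6.64-fold in the duodenum (log2 2.73 ± 0.55 SE, edgeR adjusted p = 7.54e-04) and 18.4-fold in the ileum (4.20 ± 0.59, adjusted p = 2.21e-06). It was also higher at week 2 than at day 0, 4.09-fold in the duodenum (adjusted p = 0.00827) and 11.2-fold in the ileum (adjusted p = 1.59e-04). Between week 2 and week 3 it was not called in either region, with log2 differences of -0.93 ± 0.54 and -0.54 ± 0.53.

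Pigr, the epithelial receptor that carries joined IgA and IgM across the cell, followed another course. At each age every duodenum sample was above every ileum sample. At day 0 it stood at 255, 337 and 561 CPM in the duodenum and at 24.3, 112 and 97.4 in the ileum. At day 8 the 3 samples of each region lay close together, at 1307, 1252 and 1299 CPM in the duodenum and at 332, 339 and 332 in the ileum. At week 3 they stood at 2108, 2433 and 2178 in the duodenum and at 579, 839 and 448 in the ileum, and at week 4 at 5024, 6516 and 5697 and at 4817, 3941 and 2930.4. Pigr had thus already risen 3.35-fold by day 8 in the duodenum (log2 1.74 ± 0.35 SE, edgeR adjusted p = 9.19e-05) and 4.29-fold in the ileum (2.10 ± 0.35, adjusted p = 3.22e-05). After week 3 it rose a further 2.57-fold in the duodenum (adjusted p = 0.00581) and 6.26-fold in the ileum (adjusted p = 7.59e-07). The week 4 samples averaged 14.9-fold the day 0 level in the duodenum and 50.0-fold in the ileum.

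Ms4a1, Cd79a and Cd79b, which encode surface proteins of B cells, shared the early rise. Ms4a1 encodes CD20, a surface protein of B cells. At day 0 the duodenum held 1.14, 0.455 and 0.765 CPM and the ileum 0.517, 0.793 and 1.14. At day 6 the ileum samples reached 5.91 and 9.64 CPM, while duodenum numbers 1 and 2 held 4.04 and 1.26. At week 3 the ileum held 1.28, 2.07 and 5.74 CPM, and at week 4 it held 18.6, 35.3 and 63.5. The duodenum stood at 6.31, 6.31 and 4.88 CPM at week 4, which overlapped the ileum samples of day 6. Ms4a1 rose 3.79-fold from week 3 to week 4 in the duodenum (log2 1.92 ± 0.47 SE, edgeR adjusted p = 0.00404) and 13.0-fold in the ileum (3.70 ± 0.49, adjusted p = 5.18e-07).

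Cd79a encodes one signalling chain of the B cell receptor. The ileum of day 0 held 0, 1 and 2 counts in its 3 samples. Its level reached 4.30 and 6.79 CPM in the ileum at day 6, stood lower at week 3 (0.640, 2.41 and 2.02), and reached 14.0, 33.1 and 54.6 at week 4. In the duodenum it stood at 2.23, 0.580 and 1.58 CPM at week 2, at 0.322, 0.488 and 0.231 at week 3, and at 6.49, 7.28 and 5.30 at week 4. The week 3 samples of the duodenum were below all those of week 2 and of week 4. Cd79a was the only one of the 8 genes called lower in the duodenum at week 3 than at week 2, 4.29-fold (log2 -2.10 ± 0.72 SE, edgeR adjusted p = 0.0369). This fall was not called without the low-count filter (adjusted p = 0.0985), and of the 6 samples compared only week 2 number 2 could be left out without losing the call (range of adjusted p over the others 0.0546 to 0.158). It then rose 18.6-fold to week 4 in the duodenum (4.21 ± 0.73, adjusted p = 8.36e-05) and 20.2-fold in the ileum (4.33 ± 0.69, adjusted p = 1.61e-05). From day 0 to week 4 the summed counts in the ileum rose in a ratio of 1025 (95% counting interval 350.4 to 4976).

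Cd79b encodes the partner chain. The ileum held 2.34 and 4.17 CPM at day 6, 0.680, 1.50 and 0.771 at week 3, and 8.68, 17.6 and 28.7 at week 4. The duodenum held 1.04, 1.26 and 0.744 CPM at week 3 and 4.07, 4.97 and 4.00 at week 4. These groups did not overlap, and the rise was 4.30-fold in the duodenum (log2 2.10 ± 0.54 SE, edgeR adjusted p = 0.00632) and 18.7-fold in the ileum (4.22 ± 0.58, adjusted p = 1.13e-06).

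Mzb1 encodes an endoplasmic reticulum protein of B cells and plasma cells that assists antibody assembly. It was scarce, with at most 91 counts in a sample. The ileum samples of day 6 held 0.782 and 0.712 CPM, those of week 3 held 0, 0.0965 and 0.0964, and those of week 4 held 1.51, 2.82 and 5.01. The duodenum held 0.469, 0.834 and 0.636 CPM at week 4. Mzb1 rose 8.14-fold from week 3 to week 4 in the duodenum (log2 3.03 ± 0.85 SE, edgeR adjusted p = 0.0131) and 47.9-fold in the ileum (5.58 ± 0.94, adjusted p = 3.02e-05). The duodenal call was lost when week 3 number 1 or 3 or week 4 number 2 was left out. Tnfrsf17, which encodes the plasma cell survival receptor BCMA, had 0 to 2 counts in each of the 46 samples, so no age or region difference was detectable at this depth.

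Counted over the genes, 8 of 8 tested were higher at week 4 than at week 3 in the duodenum, where 7.75% of all genes were, and 8 of 8 in the ileum, where 8.26% were. Their median log2 difference was 2.88 in the duodenum and 4.28 in the ileum, against -0.04 and 0 over all genes. From day 0 to week 4 all 8 were again higher in both regions (background 20.4% for the duodenum, 21.5% for the ileum). The step from week 2 to week 3 differed: in the duodenum 3 were higher (Pigr, Jchain and Igha; 7.7% of all genes were) and 1 lower (Cd79a; 10.6%), and in the ileum Pigr alone was higher (12.9%). The ileal call for Pigr, 1.89-fold with an edgeR adjusted p of 0.0398, was lost when any 1 of ileum week 2 numbers 1, 2 and 3 or week 3 numbers 1 and 2 was left out. Week 3 number 1 was the week 3 sample with Xist above Ddx3y in each region, as in all week 4 samples. Its Jchain level was 0.681 CPM (duodenum) and 0.240 CPM (ileum). The part of sex in the week 3 to week 4 differences was not tested for any gene.

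Among the 8 genes, the early rise took in the B cell genes, Pigr and Igha. At week 2 against day 0, 6 of the 8 genes were higher in the duodenum (Cd79a, Ms4a1, Pigr, Cd79b, Ighm and Igha; 12.1% of all genes were), and the same 6 in the ileum (6.43%). At day 8 against day 0, a comparison added after the values had been seen, those 6 were higher in the duodenum (22.0% of all genes), and in the ileum Mzb1 was higher in place of Igha (8.56%). By edgeR, duodenal Cd79a was then 12.3-fold above day 0 (adjusted p = 4.24e-04) and ileal Ms4a1 5.61-fold above it (adjusted p = 3.44e-04). The duodenal day 8 call for Igha was lost without day 0 number 3 (edgeR adjusted p = 0.0667) or day 8 number 2 (0.0660). That for Ighm was lost without day 0 number 1 (0.0603) or day 8 number 3 (0.0511). That for Cd79a was lost with limma on log2(value + 0.1) (adjusted p = 0.0701). Ileal Igha at day 8 was called with DESeq2 (adjusted p = 0.0229) and with both limma alternatives. Without duodenum day 0 number 1, whose Pdx1 was 2.41 CPM against 13.0 and 25.0 in the others of its group, the week 2 count in the duodenum fell from 6 to 3. The genes whose calls were lost were Pigr, Ighm and Cd79b, with adjusted p-values of 0.0587, 0.0567 and 0.0588. The duodenal week 2 call for Ms4a1 was lost without day 0 number 2 (edgeR adjusted p = 0.0824) or week 2 number 1 (0.0617). That for Pigr was lost with all 48 samples (0.0946), and that for Cd79a with limma on log2(value + 0.1) (adjusted p = 0.129). In the ileum the week 2 call for Igha was lost without the low-count filter (edgeR adjusted p = 0.0814). It was also lost without any 1 of day 0 numbers 1, 2 and 3 or week 2 number 1 (0.0726 to 0.117). The ileal week 2 call for Ms4a1 was lost without day 0 number 1 (0.0592) or week 2 number 2 (0.0666).

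**Figure D2:**
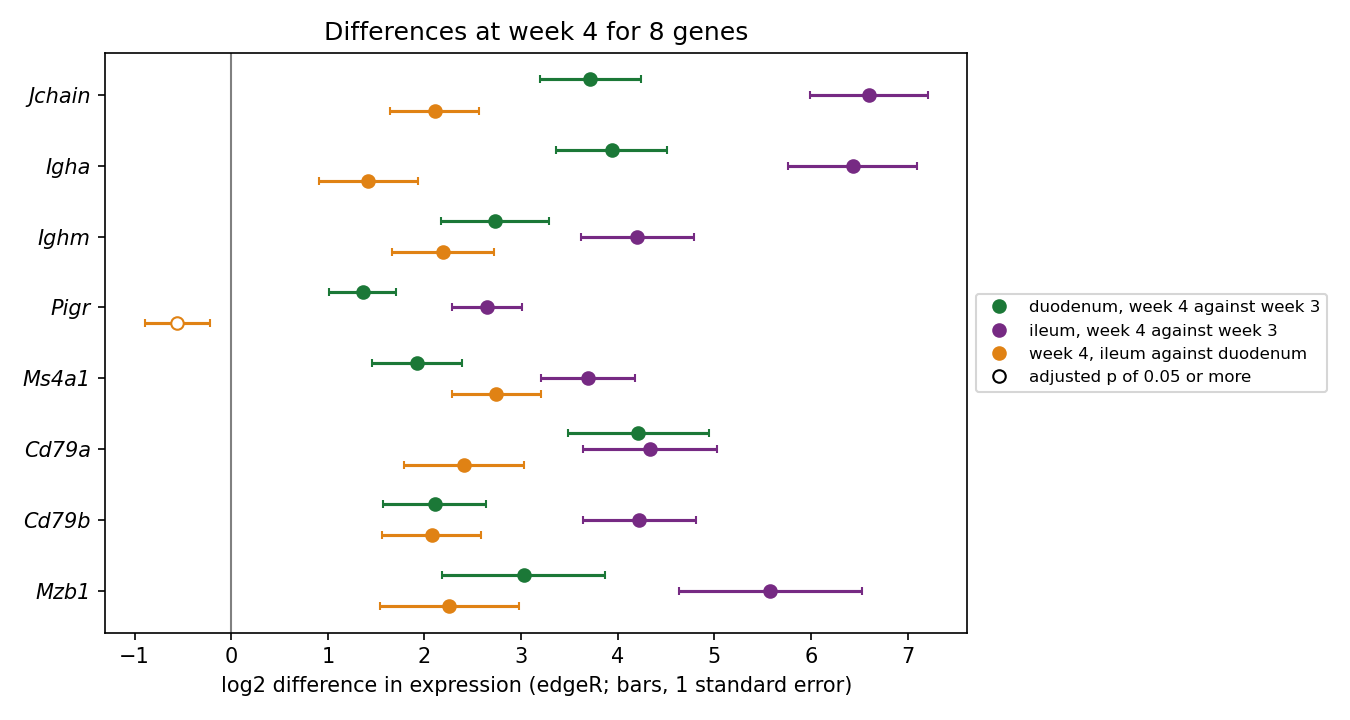
Log2 differences with 1 standard error from edgeR for week 4 against week 3 in the duodenum (green) and the ileum (purple), and for ileum against duodenum at week 4 (orange); open points have an adjusted p of 0.05 or more. All 16 week 3 to week 4 differences lie right of 0, and in the regional comparison only Pigr lies left of it, at -0.56.

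At week 4, 7 of the 8 genes were higher in the ileum than in the duodenum, where 14.5% of all genes were, and none was lower. The differences were 6.69-fold for Ms4a1 (log2 2.74 ± 0.46 SE, edgeR adjusted p = 4.61e-05), 5.32-fold for Cd79a (adjusted p = 0.00483), 4.56-fold for Ighm (adjusted p = 0.00299) and 4.21-fold for Cd79b (adjusted p = 0.00348). Jchain was 4.30-fold higher (adjusted p = 0.00117), Mzb1 4.79-fold (adjusted p = 0.0181) and Igha 2.68-fold (adjusted p = 0.0365). The samples of both regions overlapped for Jchain and Igha and did not for the other 5. Pigr was 1.47-fold lower in the ileum, with samples that did not overlap and a difference that was not called (log2 -0.56 ± 0.34, adjusted p = 0.208). Igha was not called with DESeq2 (adjusted p = 0.153), with all 48 samples (0.0558), without the low-count filter (0.0982), with only the compared groups (0.128), or without any 1 of duodenum numbers 1 and 2 and ileum numbers 2 and 3 (0.0759 to 0.297). Jchain was not called with only the compared groups (adjusted p = 0.0937). Mzb1 was not called without duodenum number 1 (adjusted p = 0.0770) or duodenum number 3 (0.0602). Without ileum week 4 number 3, the sample with the highest levels of all 7 genes, 3 were called (Ms4a1, Ighm and Cd79b).

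**Figure D3:**
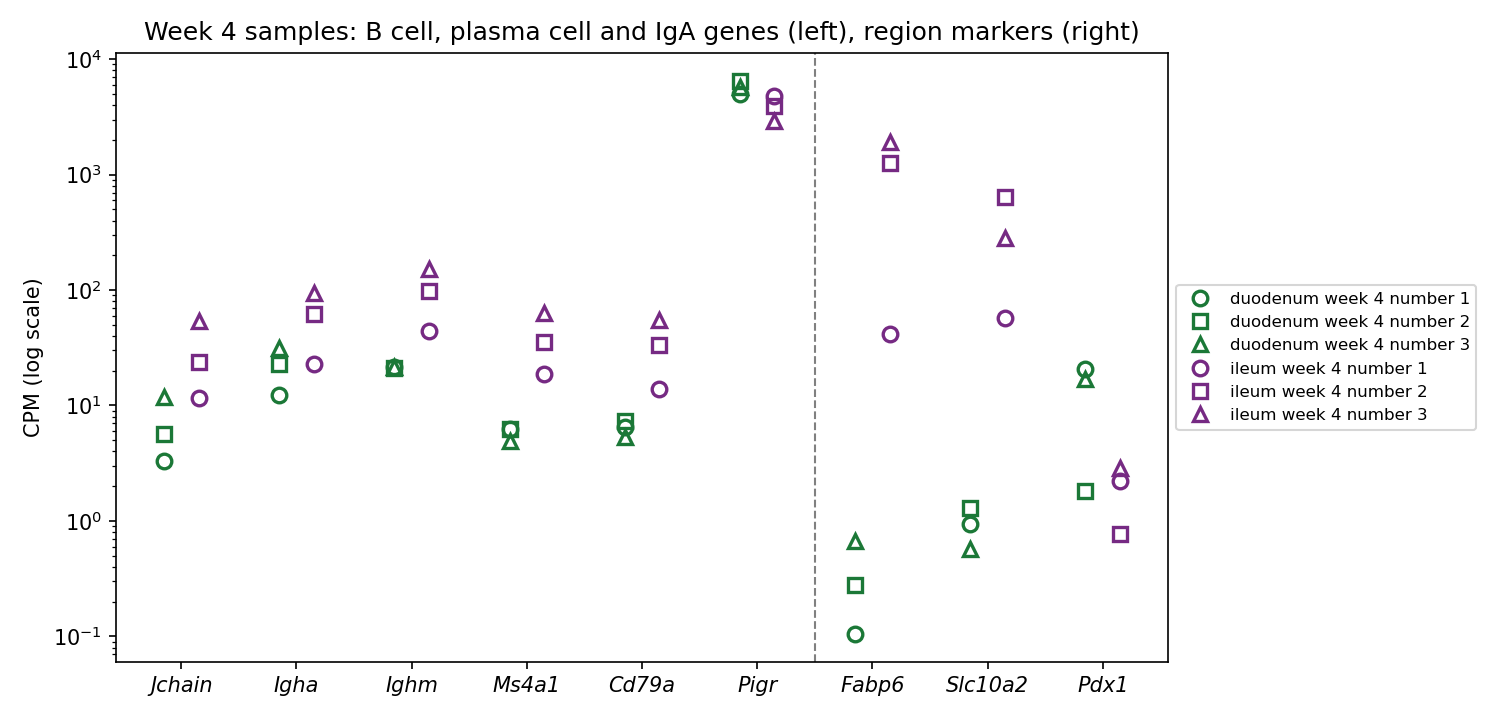
CPM on a log scale in the 6 week 4 samples for 6 genes (left of the dashed line) and 3 region markers (right); colour gives the region and the symbol the sample number. Ileum number 1 (purple circle) was the lowest of the ileum samples for Jchain, Igha, Ighm, Ms4a1 and Cd79a and the highest for Pigr, and it also had the lowest Fabp6, at 41.6 CPM, and Slc10a2, at 57.6 CPM.

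The ileum samples of week 4 were ordered alike in these genes. Number 1 was the lowest and number 3 the highest for Jchain, Igha, Ighm, Ms4a1, Cd79a, Cd79b and Mzb1, and the order was reversed for Pigr. Number 1 was also the sample with low Fabp6, with high Gata4 and with low Slc10a2, the ileal bile acid transporter (57.6 CPM against 643 and 282). The part of the place of the cut in these levels was not tested. Without that sample the regional comparison still called 7 genes, and without duodenum week 4 number 2 it called 6, with Igha lost.

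At week 3 the picture by region was another. Cd79a was 4.90-fold higher in the ileum (edgeR adjusted p = 0.0316; 7.28% of all genes were higher) and Pigr 3.60-fold lower (adjusted p = 3.22e-04; 6.9% were lower). Igha and Jchain were lower in the ileum on average, with log2 differences of -1.07 ± 0.62 SE (adjusted p = 0.258) and -0.78 ± 0.59 (adjusted p = 0.406), and neither was called. The Cd79a call did not hold without the low-count filter (adjusted p = 0.0863) or without any 1 of the 3 duodenum samples or ileum numbers 2 and 3. Averaged over ages, Pigr was 1.93 ± 0.13 lower in log2 in the ileum (adjusted p = 2.63e-15; 30.2% of all genes were lower). Ms4a1, Jchain, Cd79a and Ighm were higher by 0.58 to 0.92 (31.9% were higher), and the calls for Jchain, Cd79a and Ighm were lost with all 48 samples under their labels.

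Whether the change from day 0 to week 4 differed between the regions was tested as an interaction. It was larger in the ileum for Ighm (difference of log2 changes 3.31 ± 0.83 SE, edgeR adjusted p = 0.0149), Ms4a1 (2.69 ± 0.68, adjusted p = 0.0149) and Pigr (1.74 ± 0.48, adjusted p = 0.0252). Over all genes 3.14% were called in that direction. Cd79b, at 2.66 ± 0.86, and Cd79a, with 3 counts in the ileum at day 0, missed the threshold with adjusted p-values of 0.0553 and 0.0623. For Jchain the difference was 1.55 ± 1.03 (adjusted p = 0.355), and for Igha it could not be estimated because day 0 held no counts. The call for Pigr was lost with all 48 samples (adjusted p = 0.175), without the low-count filter (0.0733) and with only the compared groups (0.136), and the last also lost Ms4a1 (0.0509). With same-numbered samples of an age taken as a block, Ighm and Ms4a1 were not called. None of the 3 calls held without ileum day 0 number 1, the sample with the lowest Pigr (24.3 CPM). Without duodenum day 0 number 3 the call for Ms4a1 was left, without ileum week 4 number 3 that for Pigr, and without ileum week 4 number 1 the count was 5, with Cd79a and Cd79b added. Leaving out duodenum week 4 number 1 or number 3 also lost the call for Pigr (edgeR adjusted p = 0.0689 and 0.0571).

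**Figure D4:**
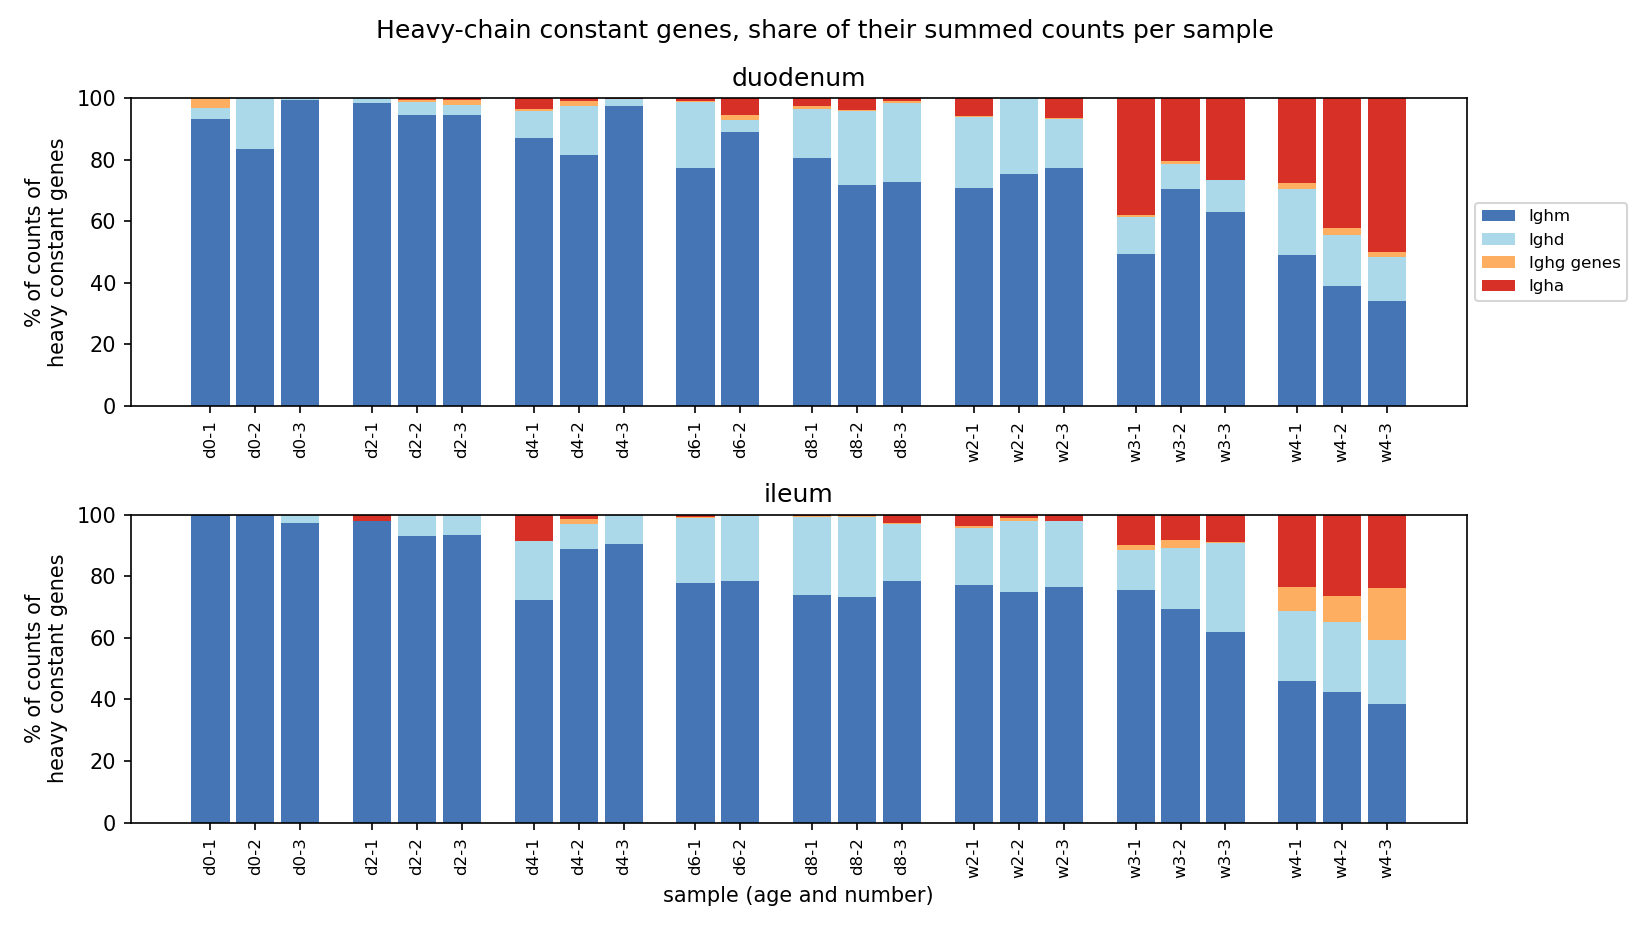
Share of Ighm, Ighd, the Ighg genes and Igha in the summed estimated counts of the heavy-chain constant genes, 1 bar per sample, with age and sample number below the bars. The Igha share at week 3 was 20.3% to 37.9% in the duodenum and 8.21% to 9.76% in the ileum, and at week 4 it was 27.7% to 49.9% and 23.7% to 26.6%.

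The antibody classes were set side by side as shares of the counts of Ighm, Ighd, Ighg1, Ighg2b, Ighg2c, Ighg3, Ighe and Igha. These shares are not corrected for transcript length, so they are read across samples and not as amounts of each class. At day 0 Igha was 0 of 30, 30 and 135 counts in the duodenum, which allows a share of up to 10%, 10% and 2.22%. At week 3 its share in the duodenum was 37.9% (95% exact binomial interval 32.1 to 44.0), 20.3% (15.0 to 26.5) and 26.6% (19.8 to 34.3). In the ileum it was 9.76% (5.14 to 16.4), 8.21% (4.76 to 13.0) and 8.85% (5.24 to 13.8). The week 3 samples of the regions did not overlap, although both held few counts, 154 to 269 in the duodenum and 123 to 195 in the ileum. At week 4 the share was 27.7%, 42.1% and 49.9% in the duodenum and 23.7%, 26.6% and 23.9% in the ileum, again without overlap. These shares were not tested, and the intervals cover counting error only.

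IgG genes separated the regions further. At week 4 they took 7.56%, 8.44% and 17.0% of heavy constant counts in the ileum and 1.77%, 2.45% and 1.63% in the duodenum. Ighg2b, one of them, was 5.31 ± 0.63 higher in log2 in the ileum at week 4 (edgeR adjusted p = 1.18e-06). Its level there was 29.5 ± 30.9 CPM (SD, n = 3), so the samples themselves were far apart. Ighg genes are near-identical in part, and how counts were shared among them by the authors' estimate is uncertain. Ighd, co-expressed with Ighm on naive B cells, took 20.7% to 22.9% of the counts in the ileum at week 4 and 14.3% to 21.4% in the duodenum, and it had already taken 18.6% to 23.3% and 15.9% to 24.7% at week 2.

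Light chains and further heavy-chain genes were counted as a list. Of 10 further immunoglobulin constant genes listed, 8 passed the low-count filter. From week 3 to week 4, 7 of them were higher in the duodenum (7.75% of all genes were) and 8 in the ileum (8.26%). Their median log2 difference, with genes at 0 set at their bound, was 3.57 and 4.86. Igkc, the kappa light chain, stood at 19.1 ± 4.45 CPM in duodenum and at 102 ± 68.3 in ileum by week 4 (SD, n = 3). It had no count in the ileum at day 0, so week 4 was at least 3157-fold higher there. Iglc3, a lambda chain gene with a close copy in Iglc2, stood at 1.28 ± 0.0671 and 7.40 ± 4.79 CPM, from 0 at day 0 in both regions.

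**Figure D5:**
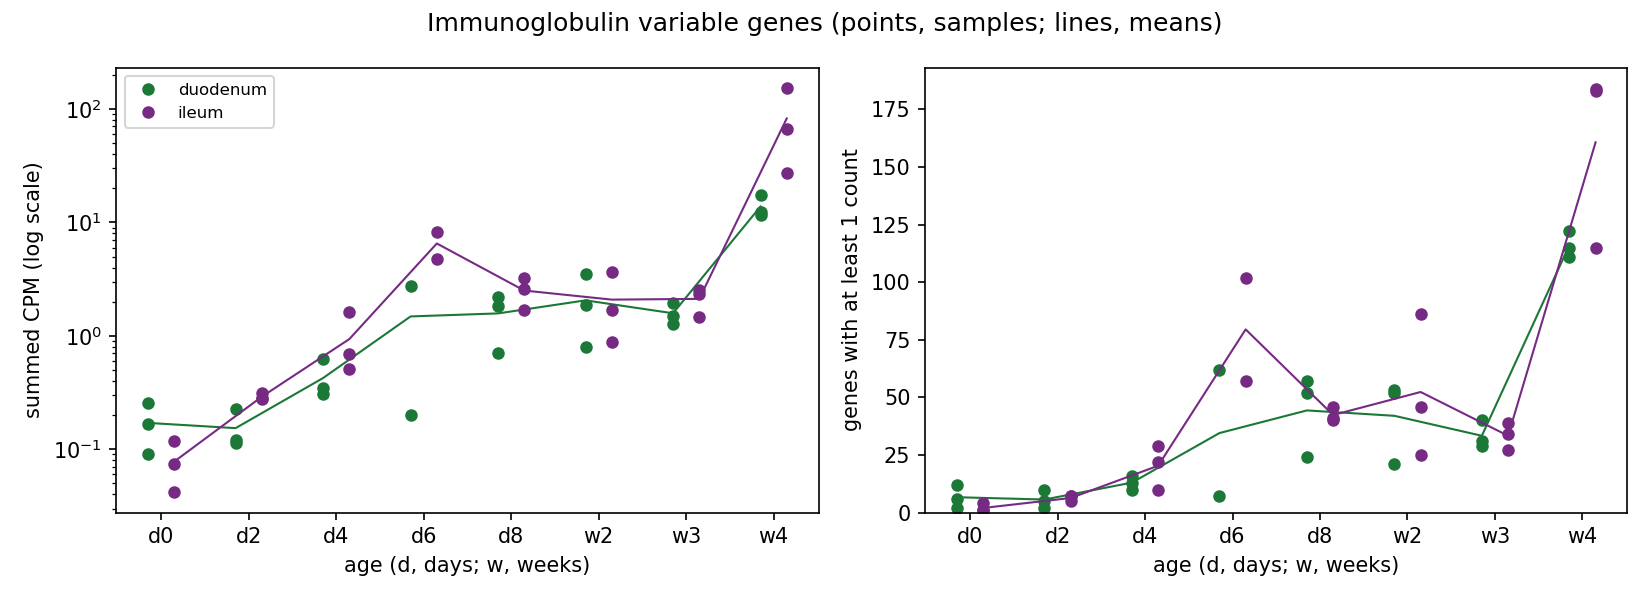
Summed CPM on a log scale (left) and number of genes with at least 1 count (right) for immunoglobulin variable genes against age; points are samples and lines join group means of duodenum (green) and ileum (purple). At week 4 between 111 and 184 variable genes had a count in each sample.

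The count table held 346 immunoglobulin variable genes (183 heavy, 160 kappa and 3 lambda). At day 0 between 1 and 12 of them had a count in a sample. The ileum of day 6 had 57 and 102 with a count, against 27 to 39 at week 3, and its summed level then was 4.78 and 8.25 CPM against 1.48 to 2.56. At week 4 the summed level was 11.5 to 17.4 CPM in the duodenum, where 111 to 122 had a count, and 27.3 to 154 in the ileum, where 115 to 184 had one. The most abundant single variable gene took 4.84% to 9.48% of the variable counts in the week 4 samples. Variable genes share much sequence, so single names among them are uncertain, and more genes are found in samples with more counts.

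For the lists of further genes below, the shares of all genes called from week 3 to week 4 were 7.75% higher in the duodenum, and 8.26% higher and 7.81% lower in the ileum. From day 0 to week 4 they were 20.4% higher and 20.1% lower in the duodenum, and 21.5% higher and 20.4% lower in the ileum. Between the regions at week 4, 14.5% were higher in the ileum and 13.9% lower. The median log2 difference over all genes was -0.04 and 0 from week 3 to week 4, -0.02 and 0.08 from day 0 to week 4 (duodenum and ileum), and 0.08 between the regions.

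Other B cell genes made a list of 20 surface proteins, signalling proteins and transcription factors. From week 3 to week 4, 16 of 20 were higher in the duodenum and 20 of 20 in the ileum, with median log2 differences of 2.85 and 4.28. At week 4, 17 were higher in the ileum and 1, Blnk, lower, and the median difference was 2.47. Spib, an Ets transcription factor of B cells that M cells also use, reached 13.2 ± 1.06 CPM in duodenum and 23.1 ± 8.67 in ileum by week 4, from 0.140 ± 0.179 and 0.255 ± 0.358 at day 0 (SD, n = 3). Pou2af1, a coactivator of octamer-binding factors, went from 0.140 ± 0.0732 to 2.88 ± 1.08 CPM in duodenum, and in ileum from 1 count to 18.9 ± 10.7 CPM. Its change was called larger in the ileum (edgeR adjusted p = 0.00302). Ciita, the master regulator of MHC class II genes, and Cd72, a B cell surface protein, likewise had larger changes in the ileum, by 2.49 ± 0.56 (adjusted p = 0.00551) and 2.02 ± 0.62 (adjusted p = 0.0455). Cd37, a tetraspanin of lymphocytes, stood at 5.72 ± 0.359 and 22.6 ± 12.1 CPM at week 4. Markers of B cell precursors (6 genes, among them Rag1, Dntt and Igll1) summed to at most 0.538 CPM in any sample, none of the 6 passed the low-count filter, and Vpreb2 had no count in any sample.

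Plasma cell and antibody secretion genes, a list of 14, moved less as a group. From week 3 to week 4, 7 were higher in the duodenum and none lower, and in the ileum 7 were higher and 1, Sdc1, lower, with median log2 differences of 0.66 and 0.68. Several of them have other sources in the gut: Prdm1 encodes the plasma cell regulator Blimp-1, which is also known in the suckling epithelium. Prdm1 fell from 98.9 ± 27.8 CPM at day 0 to 18.8 ± 4.56 at week 4 in duodenum, and ileal Prdm1 from 137 ± 33.5 to 23.0 ± 5.81 (SD, n = 3; edgeR adjusted p = 2.69e-11 and 4.91e-12). Between week 3 and week 4 it rose by 0.83 ± 0.22 and 0.88 ± 0.22 in log2 (adjusted p = 0.00803 and 0.00404). Cd38, a surface enzyme, was the gene most like Pigr over the 46 samples and rose 4.33 ± 0.27 in log2 from day 0 to week 4 in the ileum (adjusted p = 5.08e-16). Sec11c, a subunit of the signal peptidase, rose by 1.11 ± 0.14 in the duodenum and 1.31 ± 0.14 in the ileum.

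Genes of IgA class switching and of lymphocyte homing made a list of 20, with 15 tested. From day 0 to week 4, 7 were higher and 2 lower in the duodenum, and 11 higher and 2 lower in the ileum. Ccl28, a chemokine that draws IgA plasma cells, rose from 8.75 ± 2.02 to 41.4 ± 1.59 CPM in duodenum, and ileal Ccl28 from 4.12 ± 0.978 to 49.0 ± 4.67 (SD, n = 3; edgeR adjusted p = 5.98e-09 and 2.82e-13). Ccl25, the ligand of the gut homing receptor CCR9, rose from 137 ± 20.6 to 457 ± 36.7 CPM and from 83.8 ± 18.0 to 299 ± 98.9. Neither differed by a call between week 3 and week 4 in the duodenum, where Ccl28 changed by -0.25 ± 0.25 in log2 (adjusted p = 0.553). Tnfsf13b, which encodes the B cell survival factor BAFF, rose from week 3 to week 4 by 1.69 ± 0.29 in the duodenum and 1.14 ± 0.30 in the ileum, and at week 4 it was lower in the ileum (-0.82 ± 0.29, adjusted p = 0.0327). Madcam1, the vessel ligand that gut-homing lymphocytes bind, was lower at week 4 than at day 0 in both regions.

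Lymphoid follicle and M cell genes, a list of 15 with 14 tested, were higher in 10 cases and lower in 1 from week 3 to week 4 in the ileum, with a median log2 difference of 2.64, and higher in 4 in the duodenum (median 0.89). Cxcl13, Cxcr5, Ltb, Lta, Ccr6 and Ccr7 were higher in the ileum than in the duodenum at week 4, and none of the 14 was lower. Ltb, a lymphotoxin that organises follicles, stood at 7.13 ± 3.75 CPM in the ileum and 1.77 ± 0.125 in the duodenum at week 4 (SD, n = 3), and Ccr7, a homing receptor for lymphoid tissue, at 2.65 ± 1.28 and 0.584 ± 0.335. Mfge8, made by follicular cells and macrophages among others, fell from 138 ± 27.1 at day 0 to 13.2 ± 6.78 in the ileum (edgeR adjusted p = 3.19e-12). S1pr2, a receptor that keeps germinal centre B cells in place and is also found in other tissue, fell from 4.08 ± 0.341 to 1.46 ± 0.541. The labels do not say whether a piece held a Peyer's patch, the follicle cluster of the gut wall, and the part of this in the B cell values was not tested.

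Markers of other cells moved too. The 8 T cell markers summed to 5.27 to 11.1 CPM in the duodenum and 3.28 to 7.62 in the ileum at week 3, and to 58.3 to 89.8 and 55.2 to 76.3 at week 4, where the regions overlapped. In the ileum these T cell markers also stood higher at day 6 (12.7 to 16.4 CPM) than at day 4 (4.42 to 12.3) and day 8 (5.35 to 7.09). Their median log2 difference between ileum and duodenum at week 4 was 0.18, against 2.15 for the 8 genes described here. The 8 macrophage markers summed to 40.8 to 46.7 and 33.4 to 39.9 CPM at week 3 and to 17.7 to 30.1 and 23.2 to 27.6 at week 4. The 8 epithelial markers summed to 3794 to 4048 CPM in the duodenum and 3567 to 4429 in the ileum at day 0. At week 2 they summed to 4587 to 5034 and 4392 to 4788 CPM, and at week 3 to 6381 to 7395 and 9105 to 12087. At week 4 they summed to 8296 to 11911 CPM in the duodenum and 7519 to 11851 in the ileum, with a median log2 difference between the regions of -0.02. The part of this rise in the Pigr changes was not tested. None of these T cell, macrophage and epithelial markers was at 0 in either region. Pancreatic acinar markers summed to at most 15.5 CPM in the duodenum at week 4. They were higher there at day 2 (21.9 to 571 CPM) and day 6 (125 to 171). The ileum held 12.9 to 16.2 and 11.2 to 11.3 CPM at these ages. The part of pancreatic tissue in the duodenal levels was not tested.

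Across the 46 samples, the genes whose log2 CPM was most like that of 3 of the genes were listed as a description. For Ms4a1 these were Iglc2 and Iglc3 (Pearson r = 0.96 for both), Gimap3 and Cd69 (0.94), and Tbc1d10c (0.94). For Jchain they were Defa-ps5 and Tcp10a (0.93), Ido1, Igkv8-19 and Igha (0.92). For Pigr they were Cd38 and Ms4a12 (0.95), Abcc3 and Bcl2l14 (0.94), and Cerk (0.93). The samples share libraries, regions and ages, and the week 4 samples lie far from the rest for Jchain and Ms4a1, which bears on every r given.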

How the data were processed

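Total RNA from duodenum and ileum was sequenced in 48 samples. STAR 2.6.1d, Salmon 0.14.2, DESeq2 1.30.1 and build mm10 are named, without role, in the submitters' processing notes; annotation release and trimming are not given in the sources used here. The deposited main table holds estimated counts per gene, already whole numbers. The 2 normalized tables the authors deposited hold 40 columns of signal, each an estimated count divided by 1 factor per column, and served for limma alternatives only. Samples were grouped by region and age from their titles. Genes were filtered with filterByExpr, scaled by TMM and tested with edgeR 4.0.16 (R 4.3.3; quasi-likelihood, robust), with 1 fit over 46 samples and 16 groups. Standard errors are the log2 difference over the square root of F. Intervals and floors cover counting error only. Alternatives used DESeq2 1.42.0, limma 3.58.1 on log2(value + 1) and log2(value + 0.1), other filters, scalings and samples. The scripts were tested on simulated data. Genes named beside the 9 were up to 3 per list and region with the smallest adjusted p from day 0 to week 4, and the 5 most alike for Jchain, Ms4a1 and Pigr; others named only as members of a count were chosen after their values were seen. The 9 genes and all lists were chosen with earlier results of these data known.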

Additional observations from a re-analysis of the deposited data

Results flagged for a closer look

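The change from day 0 to week 4 differed between the regions by a test of the difference itself for 3 of the 8 genes that passed the low-count filter. The difference of log2 changes, ileum minus duodenum, was 3.31 for Ighm, 2.69 for Ms4a1 and 1.74 for Pigr (edgeR adjusted p = 0.0149, 0.0149 and 0.0252). For Ighm and Ms4a1 the ileum was also above the duodenum at week 4, whereas for Pigr the ileum started far lower and was 1.47-fold below the duodenum at week 4, a difference that was not called. Without ileum day 0 number 1 none of the 3 was called, although their unadjusted p-values stayed under 0.05. With same-numbered samples taken as a block, Ighm and Ms4a1 were not called. The calls also depended on other settings, given with the processing alternatives below.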

How the results depend on the processing

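Over 128 combinations of a gene and a comparison, 2584 values under other settings were set beside the main ones: 2438 kept direction and call, 108 lost the call, 13 gained it and 25 changed sign. The counts from day 0 to week 4 in both regions, and from week 3 to week 4 in the ileum, were 7 or 8 throughout; where genes needed a mean count of 10, Mzb1 was not tested. From week 3 to week 4 in the duodenum 8 became 5 with limma at a pseudocount of 0.1 (7 to 8 leaving out 1 sample). From week 2 to week 3 in the duodenum, 4 became 2 with all 48 samples, without the filter and with limma at 0.1 (2 to 3 leaving out 1 sample). In the ileum 1 became 0 in edgeR with all 48 samples, without the filter and with the replicate block, and 0 with limma at 0.1, where 1 or 2 genes had an unadjusted p under 0.05; it became 2 with only the compared groups, DESeq2 called 1, and leaving out 1 sample gave 0 to 1. At week 3 between regions, 2 became 1 with all 48 samples, without the filter and with the block (1 to 2 leaving out 1 sample). At week 4 leaving out 1 sample gave 3 to 7. Averaged over ages, 5 became 2 with all 48 samples and 3 without the 8 samples that have no normalized column (3 to 5 leaving out 1 sample; 3 without ileum day 6 number 2). Week 2 against day 0 in the duodenum gave 3 to 6. The interaction gave 5 with DESeq2, 1 with only the compared groups, 1 with the block (adjusted p = 0.0607 for Ighm and 0.0505 for Ms4a1, which were not called) and 0 to 5 leaving out 1 sample. The causes were not tested.

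The values that changed sign were of comparisons that were not called. Igha between regions averaged over ages, a fitted value that rests on day 0 groups without counts, was 0.06 in log2, -0.098 without those 8 samples and -0.21 to 0.17 leaving out 1 sample. Ms4a1 from week 2 to week 3 in the ileum was 0.02; it was -0.12 with limma at either pseudocount, -0.039 without the filter, -0.10 with the replicate block, -0.032 without those 8 samples and -0.83 to 0.39 leaving out 1 sample. Leaving out 1 sample, the same step ranged from -0.61 to 0.24 for Cd79a and from -0.93 to 0.082 for Cd79b. Jchain against day 0 ranged from -0.40 to 1.32 at day 8 and from -0.023 to 1.22 at week 2 in the duodenum, and from -0.81 to 0.15 at week 2 in the ileum. Between regions at week 3, Cd79b ranged from -0.48 to 0.17 and Mzb1 from -0.87 to 0.55.

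The sample numbers were not taken as pairs. Deviations of same-numbered duodenum and ileum samples correlated at 0.16 on average over 23 pairs (-0.36 to 0.67, 16 of them over 0.1). For different numbers the average was -0.08. Deviations were taken from the mean of each group, which ties this value to that for same numbers, so it is no separate comparison. In all 23 pairs the same gene of Xist and Ddx3y was the higher, a hint from the data and not from the design.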

Other observations

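The samples numbered 3 of day 6, left out above, are given under their labels as counts per megacount of the total. The library labelled duodenum held 0.130 of Pdx1 and 2.25 of Fabp6, and the library labelled ileum held 14.1 of Pdx1 and 0 of Fabp6. The library labelled duodenum held 210.6 of Pigr, 23.1 of Ighm, 8.74 of Ms4a1 and 6.75 of Cd79a. The library labelled ileum held 981 of Pigr, 4.32 of Ighm, 2.63 of Ms4a1 and 1.03 of Cd79a. The other samples of day 6 held 1209.7 and 1152 of Pigr in the duodenum and 229 and 158 in the ileum, and 9.22 and 1.20 of Ighm in the duodenum and 20.9 and 30.2 in the ileum.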
